A study of Mus musculus with 6 samples.

Results

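The genes described here are 43 genes of autophagy and mitophagy, measured in quadriceps muscle of mice that carry the rs6190 allele on both chromosomes and of mice with the reference allele. The 43 symbols were taken from a list of the machinery, and all transcript rows of the expression table with one of these symbols were summed per gene. They make up 43 of 33641 gene symbols in the table and 281 of its 105129 transcript rows. All 43 reached 1 TPM (a transcript abundance scaled by transcript length and by the library total) in at least 3 libraries and so entered the test of 11099 genes.

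The series holds 6 RNA-seq libraries. The homozygous group holds 3 libraries from male mice with the genotype rs6190 allele +/+, a mouse copy of a human variant of the glucocorticoid receptor gene Nr3c1. The WT group holds 3 libraries from male mice with the genotype ref allele +/+. All were littermates from heterozygous parents, 4 months old (about 16 weeks in the design text), with tissue taken at about ZT4, and the labels name no agent. The allele is inherited and present in every cell, so nothing in the design restricts it to muscle. The labels do not say in words that each library is a separate mouse, so the p-values measure the spread between these libraries. Where 3 values are given in a row, they are those of replicates 1, 2 and 3.

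Autophagy encloses a portion of cytoplasm in a double membrane, the autophagosome, and delivers it to the lysosome for breakdown. A kinase complex around ULK1 starts the process, a lipid kinase complex around VPS34 marks the site, and a pair of ubiquitin-like conjugation systems attach ATG8 proteins (the LC3 and GABARAP families) to the growing membrane. Receptors tie cargo to the ATG8 proteins, and in mitophagy the cargo is a mitochondrion. In skeletal muscle this route is known for removing damaged mitochondria and proteins, and it is induced in fasting and atrophy, conditions in which glucocorticoids act.

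The libraries differed within groups. WT replicate 3 stood apart, with a summed level of 12 fast-fibre markers of 230661 TPM against 96718 to 131342 TPM in the other 5. The summed level of 11 slow-fibre markers was 2208, 9901 and 2372 TPM (homozygous) and 2063, 1213 and 267 TPM (WT), so the groups did not overlap, and 1 of the 11 had an unadjusted p under 0.05. Skeletal muscle markers such as Acta1 and Ckm were abundant in all 6 libraries, none of the 8 muscle markers was at 0, and 4 of the 8 (and 2 of the 12 fast-fibre markers) had an unadjusted p under 0.05. The 8 summed to 119621 TPM in WT replicate 3 and to 68305 to 84143 TPM elsewhere. The 5 Schwann cell markers summed to 75.4, 103 and 28.2 TPM (homozygous) and 18.3, 25.1 and 15.8 TPM (WT), none at 0, and 4 of the 4 tested had an unadjusted p under 0.05 with 0 past the threshold; their part in the results was not tested. The summed levels of adipocyte, blood, endothelial and fibroblast markers overlapped between the groups, with Adrb3 at 0 in at least 1 library. Of the immune markers, Cd68, Csf1r and Lyz2 were tested and 2 of the 3 had an unadjusted p under 0.05, their sum being 8.09 TPM in WT replicate 3 and 28.6 to 41.3 TPM elsewhere. The depth of the libraries is unknown, since TPM carries none. Between 49277 and 51099 transcripts were above 0 in the homozygous libraries and between 43986 and 48546 in the WT libraries, with the fewest in WT replicate 3, and the mitochondrial share of TPM was 14.3% in WT replicate 3 and 20.9 to 33.9% elsewhere. The part of these library differences in the results was not tested beyond the alternatives named. In bulk tissue, fewer cells of a type and less RNA per cell cannot be told apart.

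None of the 43 genes passed the threshold, and 42 of the 43 had a higher mean log2 level in the homozygous libraries. In limma 0 of 43 had an adjusted p under 0.05, the smallest being 0.168, and over all 11099 genes tested the share called was 0%. At an unadjusted p under 0.05, 24 of the 43 were higher (55.8%) and 0 were lower, where 23.7% of all genes tested were higher and 0.55% lower. The 3 homozygous libraries lay above the 3 WT libraries for 25 of the 43 (58.1%), against 34.7% of all genes, and for 0 of the 43 did they lie below, against 0.73%. The median log2 fold change, on the log2(TPM + 1) scale and homozygous minus WT, was 0.39 over the 43 genes and 0.26 over all genes, a difference of 0.13. By library, the median log2 level of the members minus that of all genes was 1.49, 1.47 and 1.36 (homozygous) and 1.48, 1.46 and 1.06 (WT). WT replicate 3 was thus the library set apart, and the pooled SD of this quantity within groups was 0.174. That most members were higher therefore has to be read against a table in which 85.8% of all genes were higher in the homozygous libraries. The counts given below for each role are likewise to be read against the shares of all genes, 23.7% higher at an unadjusted p under 0.05 and 34.7% not overlapping. In 30 of the 43 genes (69.8%) the lowest library was WT replicate 3, which was also the lowest for 55.8% of all genes tested.

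**Figure D1:**
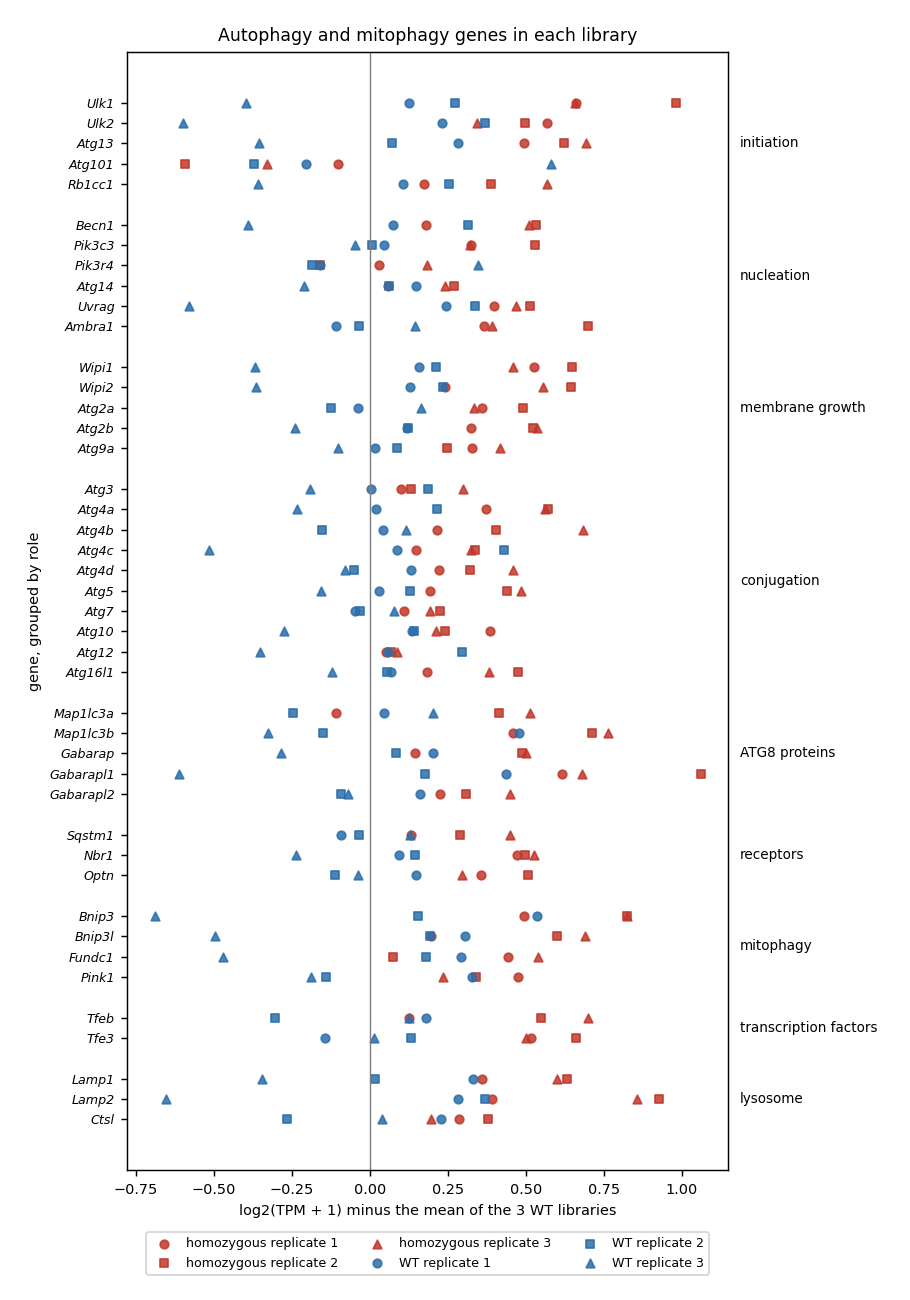
Levels of the 43 genes in each of the 6 libraries, as log2(TPM + 1) minus the mean of the 3 WT libraries of the same gene, grouped by role. Red marks are homozygous and blue marks WT libraries. WT replicate 3 (blue triangles) is the lowest library for 30 of the 43 genes, and Atg101 is the gene where it is far above the others.

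The shift common to all genes depended on the scaling. After quantile normalization the all-gene median was -0.0070 and the member median 0.15, with 35 of the 43 genes higher and 1 of the 43 at an unadjusted p under 0.05 (Ulk1), against 4.54% of all genes. With median centring the medians were -0.037 and 0.090, with 32 of the 43 higher and again 1 (Ulk1) at an unadjusted p under 0.05, against 3.65% of all genes. With a trend on transcript length removed, 2 of the 43 were higher at that p (Gabarapl1 and Ulk1), against 4.32% of all genes, and 1 was lower (Atg12). Adding the slow-fibre score as a covariate left 3 of the 43 at an unadjusted p under 0.05 (Atg2a, Atg4b and Tfe3), against 5.56% of all genes. The score itself was 7.11, 9.22 and 7.27 (homozygous) and 7.02, 6.31 and 3.80 (WT). These groups did not overlap, so the covariate takes up part of the genotype difference and the 2 cannot be told apart. Under that covariate the log2 fold change was lower by more than 1.5 times for several genes, among them Ulk1 (0.38), Atg13 (0.31), Atg4a (0.31), Atg5 (0.23), Wipi1 (0.23), Map1lc3b (0.31), Nbr1 (0.33), Pink1 (0.18) and Lamp1 (0.19). Without WT replicate 3, 18 of the 43 had an unadjusted p under 0.05, all higher, against 21.3% of all genes. Without homozygous replicate 2 the number was 6 (9.60% of all genes), without homozygous replicate 3 it was 10 (12.1%), and with mitochondrially encoded transcripts left out it was 6 (9.70%), all higher.

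**Figure D2:**
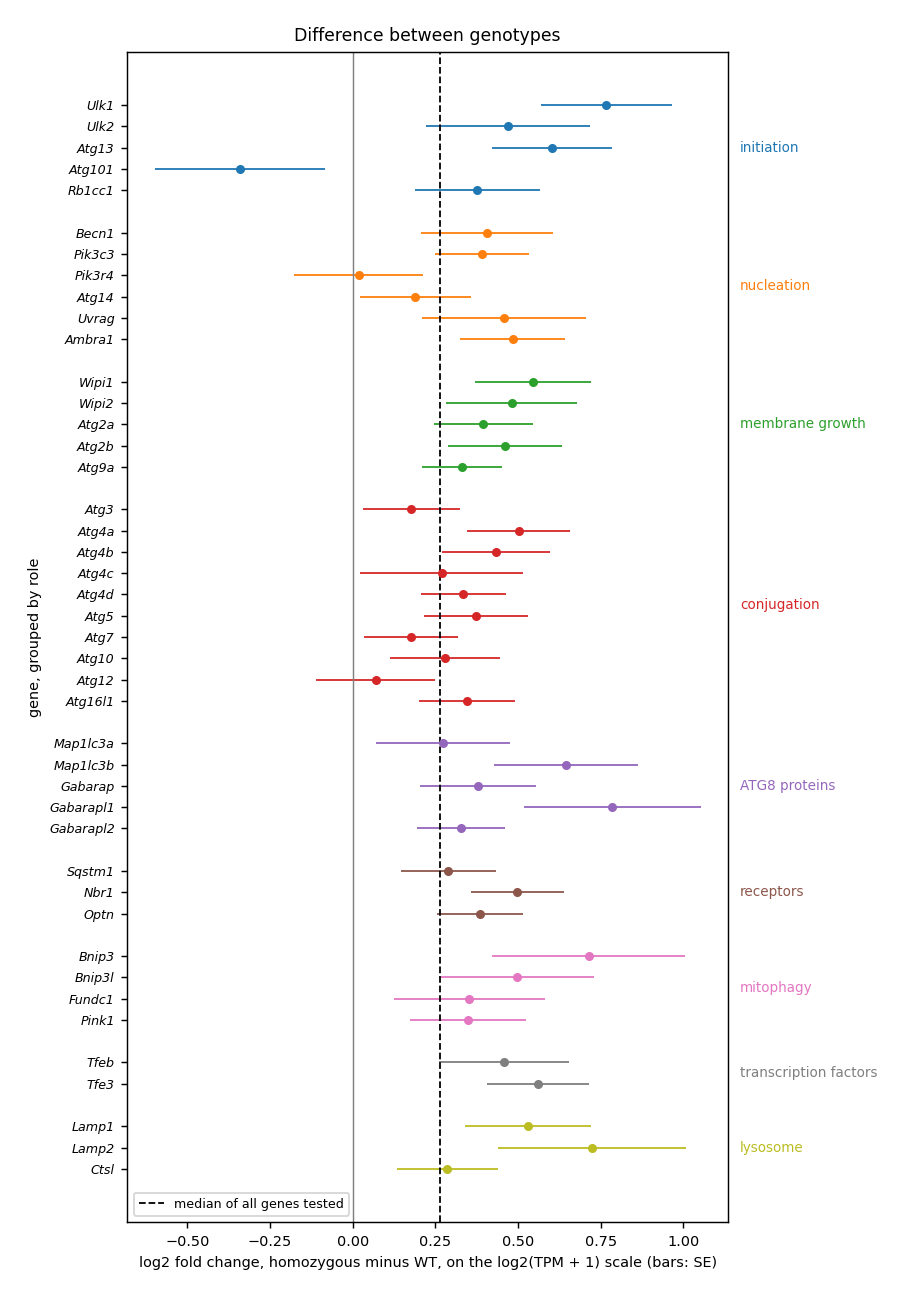
Log2 fold change of each of the 43 genes, homozygous minus WT, on the log2(TPM + 1) scale, with its standard error from limma, grouped by role. The dashed line is the median of all 11099 genes tested, 0.26, and 37 of the 43 genes lie above it.

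The initiation complex consists of the kinases ULK1 and ULK2, the scaffold proteins ATG13 and RB1CC1 (also known as FIP200), and ATG101, which binds ATG13. Of these 5 genes, 0 passed the threshold and 2 were higher at an unadjusted p under 0.05. Ulk1 (chromosome 5, 110784488 to 110810097, minus strand, GRCm38) was measured at 28.3, 35.6 and 28.3 TPM (homozygous) and 19.2, 21.4 and 13.1 TPM (WT), so the groups did not overlap. The log2 fold change of Ulk1 was 0.77 (SE 0.20, adjusted p 0.168 in limma), and it kept its sign under all 17 alternatives, between 0.38 and 0.903. Atg13 was 19.8, 21.7 and 22.8 TPM (homozygous) and 17.0, 14.5 and 10.5 TPM (WT), again with no overlap. Its log2 fold change was 0.60 (SE 0.18). The ratio of Ulk1 to its paralog Ulk2 overlapped between groups, at 1.04, 1.38 and 1.22 (homozygous) and 0.905, 0.912 and 1.13 (WT).

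Atg101 was the 1 member with a negative log2 fold change, and it is named for that reason, after its values were seen. Its level was 24.6, 17.2 and 20.8 TPM (homozygous) and 22.8, 20.2 and 39.96 TPM (WT). WT replicate 3 was far above the other 5 libraries, which lay between 17.2 and 24.6 TPM. The log2 fold change was -0.34 (SE 0.26, adjusted p 0.396 in limma), -0.052 without WT replicate 3, -0.53 without WT replicate 2, -0.22 without homozygous replicate 2, and 0.20 with the slow-fibre covariate.

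Nucleation rests on the lipid kinase VPS34 (Pik3c3), its regulatory subunit VPS15 (Pik3r4), Beclin 1 (Becn1), and the alternative partners ATG14 and UVRAG, with AMBRA1 as a Beclin 1 regulator. Of these 6 genes, 0 passed the threshold, 2 were higher at an unadjusted p under 0.05 and all 6 had a positive log2 fold change. Ambra1 was 7.30, 9.46 and 7.45 TPM (homozygous) and 4.99, 5.30 and 6.13 TPM (WT), with a log2 fold change of 0.48 (SE 0.16, adjusted p 0.169 in limma). Pik3c3 was 6.40, 7.53 and 6.40 TPM against 5.10, 4.94 and 4.72 TPM, with a log2 fold change of 0.39 (SE 0.14). In both of these genes the groups did not overlap, but those of Pik3c3 did when only protein-coding transcript rows were summed. Becn1 overlapped, at 53.7, 68.9 and 67.8 TPM (homozygous) and 49.9, 59.2 and 35.9 TPM (WT), with WT replicate 2 above homozygous replicate 1 and a log2 fold change of 0.41 (SE 0.20), 0.21 without WT replicate 3 and 0.072 with the slow-fibre covariate. Pik3r4 had the smallest log2 fold change of all 43 genes in size, 0.018 (SE 0.20), although its transcript rows differed, as described with the isoforms.

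Membrane growth uses the lipid binding proteins WIPI1 and WIPI2, the lipid transfer proteins ATG2A and ATG2B, and the scramblase ATG9A. All 5 genes had groups that did not overlap, against 34.7% of all genes with the homozygous libraries above. The groups of Wipi2 overlapped when only protein-coding transcript rows were summed. All 5 were higher at an unadjusted p under 0.05, against 23.7% of all genes, while 0 passed the adjusted threshold (smallest adjusted p 0.168, limma). Wipi1 was 37.2, 40.5 and 35.4 TPM (homozygous) and 28.5, 29.6 and 19.5 TPM (WT), a log2 fold change of 0.54 (SE 0.18), or 0.36 without WT replicate 3. Atg9a, the only multi-spanning membrane protein of the core machinery, was 50.3, 47.6 and 53.7 TPM against 40.4, 42.5 and 37.2 TPM. Its log2 fold change was 0.33 (SE 0.12), and -0.0076 when a transcript length trend was removed. For the other 3 genes the log2 fold changes were 0.48 (Wipi2), 0.39 (Atg2a) and 0.46 (Atg2b). The sum of Atg2a counts the same values again, since 50% of its TPM lay on rows that repeat another row.

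The conjugation genes encode the enzyme ATG7, which activates both ATG12 and the ATG8 proteins, the transfer enzymes ATG3 and ATG10, the ATG12-ATG5-ATG16L1 complex, and the ATG4 proteases that trim ATG8 proteins. Of these 10 genes, 0 passed the threshold, 5 were higher at an unadjusted p under 0.05 and 7 had groups that did not overlap. The median log2 fold change of the 10 was 0.31, or 0.042 above the median of all genes. Among the proteases, Atg4a was 19.7, 22.7 and 22.6 TPM (homozygous) and 15.2, 17.5 and 12.6 TPM (WT), a log2 fold change of 0.50 (SE 0.16, adjusted p 0.168 in limma). Atg4b, the protease with the broadest known activity, was 14.9, 17.2 and 21.04 TPM against 13.1, 11.3 and 13.9 TPM, with a log2 fold change of 0.43 (SE 0.16). The groups did not overlap for either protease, but those of Atg4b did when only protein-coding transcript rows were summed.

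Atg5, Atg7 and Atg12 belong to the core conjugation steps. Atg5 was 5.98, 7.26 and 7.53 TPM (homozygous) and 5.22, 5.67 and 4.47 TPM (WT), with a log2 fold change of 0.37 (SE 0.16). Atg7 was 4.14, 4.57 and 4.45 TPM against 3.61, 3.66 and 4.03 TPM, groups that did not overlap but with a log2 fold change of 0.18 (SE 0.14, adjusted p 0.426 in limma). Relative to the shift of all genes Atg7 was lower, at -0.11 after quantile normalization and -0.13 after median centring. Atg12, whose product is the ubiquitin-like protein joined to ATG5, was 11.3, 11.5 and 11.6 TPM in the homozygous libraries, a narrow range, and 11.4, 13.6 and 8.30 TPM in the WT libraries on both sides of it. Its log2 fold change was 0.069 (SE 0.18), -0.11 without WT replicate 3 and 0.22 without WT replicate 2.

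The ATG8 proteins are the ubiquitin-like proteins attached to the autophagosome membrane, and their 5 genes were among the more abundant transcripts of the table, at or above the 81.6 percentile of mean level among the genes tested. Summed over the 5 genes, the ATG8 level was 653, 842 and 871 TPM (homozygous) and 679, 549 and 567 TPM (WT), so homozygous replicate 1 lay below WT replicate 1. None of the 5 passed the threshold, 3 were higher at an unadjusted p under 0.05, and 2 had groups that did not overlap. The 5 are related in sequence, and the division of reads shared between them or with other copies was not stated in the labels.

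Gabarapl1 (chromosome 6, 129533160 to 129542346, plus strand) was the lowest of the 5 in level and had the largest log2 fold change of the 43 genes. Its level was 35.9, 49.2 and 37.6 TPM (homozygous) and 31.6, 26.2 and 14.8 TPM (WT), with no overlap. Group means were 40.9 ± 7.26 and 24.2 ± 8.57 TPM (SD, n = 3 each), and the log2 fold change was 0.78 (SE 0.27, adjusted p 0.171 in limma). The value was 0.48 without WT replicate 3, the lowest library, and 0.17 with the slow-fibre covariate. Map1lc3b, which encodes the LC3B protein used as the standard marker of autophagosomes, was 147, 175 and 181 TPM against 149, 95.6 and 84.6 TPM. WT replicate 1 lay just above homozygous replicate 1, so the groups of Map1lc3b overlapped, with a log2 fold change of 0.64 (SE 0.22).

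The other 3 ATG8 genes differed less. Map1lc3a had the highest level of the family, at 225, 324 and 348 TPM (homozygous) and 251, 205 and 280.2 TPM (WT), and these ranges overlapped widely. Its log2 fold change was 0.27 (SE 0.20), 0.15 without WT replicate 2, 0.15 without homozygous replicate 3, 0.46 without homozygous replicate 1 and -0.029 after median centring. Gabarap was 163, 207 and 209 TPM against 169.5, 156 and 121 TPM, with homozygous replicate 1 below WT replicate 1 and a log2 fold change of 0.38 (SE 0.17), 0.23 without WT replicate 3 and 0.094 with the slow-fibre covariate. Gabarapl2 was 81.7, 86.6 and 95.7 TPM against 78.2, 65.5 and 66.5 TPM, with no overlap and a log2 fold change of 0.33 (SE 0.13). On protein-coding rows alone, Gabarapl2 was 41.2, 46.2 and 47.7 TPM against 42.3, 33.9 and 32.4 TPM, which overlapped. Within the family the order of the levels was Map1lc3a, Gabarap, Map1lc3b, Gabarapl2 and Gabarapl1 in each of the 6 libraries. The share of Gabarapl1 in the summed ATG8 level was 5.50, 5.85 and 4.31% (homozygous) and 4.65, 4.78 and 2.61% (WT), which overlapped.

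**Figure D3:**
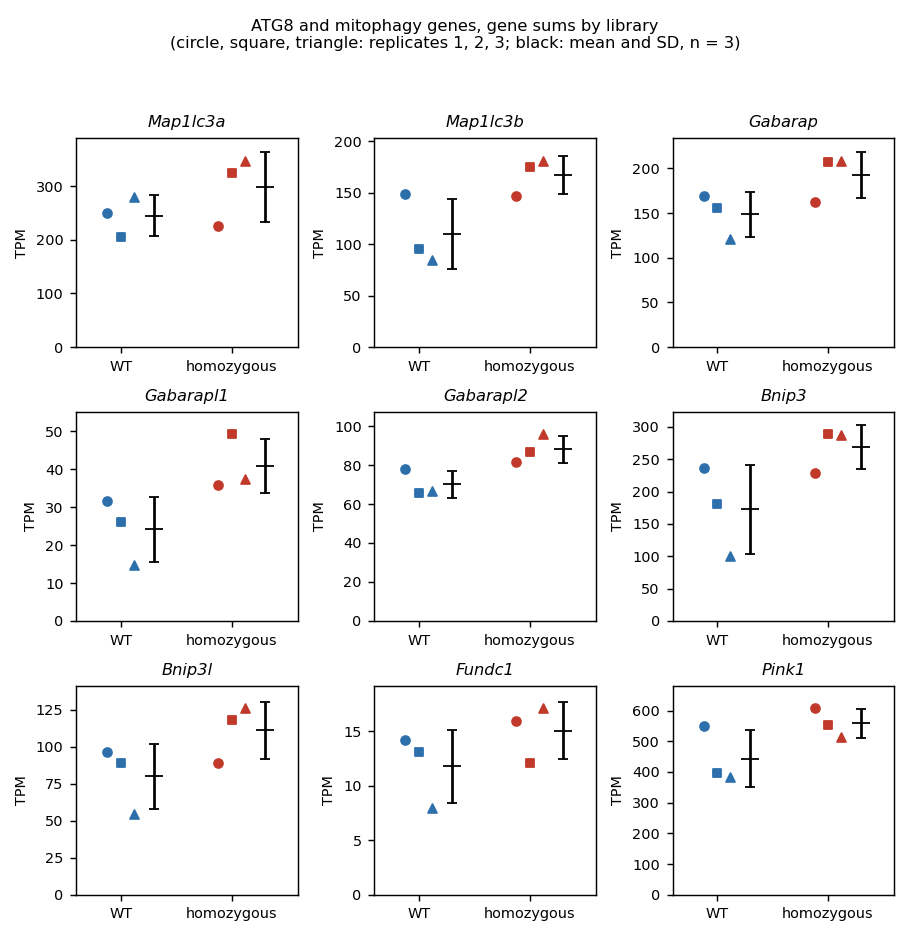
Gene sums in TPM of the 5 ATG8 genes and the 4 mitophagy genes in each WT (blue) and homozygous (red) library, with the mean and SD of each group (n = 3) in black. Gabarapl1 and Gabarapl2 are the panels in which the groups do not overlap.

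The receptors p62 (Sqstm1), NBR1 and optineurin (Optn) bind ubiquitin on cargo and ATG8 proteins on the membrane. All 3 genes had groups that did not overlap, 2 were higher at an unadjusted p under 0.05, and 0 passed the threshold. Those of Sqstm1 overlapped when only protein-coding transcript rows were summed, with homozygous replicate 1 at 330 TPM and WT replicate 3 at 337 TPM. Sqstm1, the most abundant of the 3, was 345, 385 and 430.0 TPM (homozygous) and 295, 307 and 344 TPM (WT). The lowest homozygous and the highest WT value of Sqstm1 differed by less than 1 TPM, and the log2 fold change was 0.29 (SE 0.14, adjusted p 0.240 in limma), or -0.012 after median centring. Nbr1 was 30.7, 31.2 and 31.9 TPM, a narrow range, against 23.4, 24.2 and 18.4 TPM in the WT libraries. The log2 fold change of Nbr1 was 0.50 (SE 0.14, adjusted p 0.168 in limma), or 0.16 when only protein-coding transcript rows were summed. Optn was 51.8, 57.7 and 49.7 TPM against 44.8, 37.3 and 39.3 TPM, with a log2 fold change of 0.38 (SE 0.13).

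Mitophagy is served by outer membrane receptors that bind ATG8 proteins directly, BNIP3, its relative NIX (Bnip3l) and FUNDC1, and by the kinase PINK1, which builds up on damaged mitochondria and recruits the ubiquitin ligase parkin. In all 4 genes the groups overlapped and WT replicate 3 was the lowest library, 1 was higher at an unadjusted p under 0.05 (Bnip3), and 0 passed the threshold. Pink1 had the highest level of all 43 genes, at 607, 553 and 514 TPM (homozygous) and 549, 397 and 383 TPM (WT). WT replicate 1 lay inside the homozygous range, and the log2 fold change of Pink1 was 0.35 (SE 0.18). Bnip3 was 229, 288 and 288 TPM against 236, 181 and 100.3 TPM, the WT values being spread more than 2-fold. The log2 fold change of Bnip3 was 0.71 (SE 0.29, adjusted p 0.195 in limma), 0.37 without WT replicate 3 and 0.11 with the slow-fibre covariate.

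In Bnip3l, as in Bnip3, homozygous replicates 2 and 3 were highest and WT replicate 3 was lowest. Bnip3l was 89.1, 118 and 126 TPM (homozygous) and 96.1, 88.8 and 54.8 TPM (WT), a log2 fold change of 0.50 (SE 0.23), 0.25 without WT replicate 3 and 0.060 with the slow-fibre covariate. The ratio of Bnip3 to Bnip3l was 2.57, 2.44 and 2.29 (homozygous) and 2.46, 2.04 and 1.83 (WT), which overlapped. Fundc1 was the lowest of the 4, at 15.9, 12.1 and 17.1 TPM against 14.2, 13.1 and 7.99 TPM, with a log2 fold change of 0.35 (SE 0.23), 0.12 without WT replicate 3 and 0.14 with the slow-fibre covariate.

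TFEB and TFE3 are transcription factors of lysosome and autophagy genes, and LAMP1, LAMP2 and cathepsin L (Ctsl) are lysosomal products of such genes. Tfe3 (chromosome X, 7762560 to 7775202, plus strand) was 4.76, 5.35 and 4.69 TPM (homozygous) and 2.64, 3.40 and 3.06 TPM (WT), with no overlap. Its log2 fold change of 0.56 (SE 0.15, adjusted p 0.168 in limma) ran from 0.24 to 0.69 over the 17 alternatives. Tfeb was more abundant and overlapped, at 55.7, 75.0 and 83.5 TPM against 57.9, 41.1 and 55.7 TPM, with homozygous replicate 1 below WT replicate 1. The log2 fold change of Tfeb was 0.46 (SE 0.20), or 0.30 without WT replicate 2. Neither factor passed the threshold, and both had an unadjusted p under 0.05.

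Among the lysosomal genes, 0 of 3 passed the threshold and 2 had an unadjusted p under 0.05. Lamp1 (chromosome 8, 13159161 to 13175338, plus strand) was 281, 339 and 332 TPM (homozygous) and 275, 221 and 172 TPM (WT). Homozygous replicate 1 exceeded WT replicate 1 by a small margin, and the log2 fold change was 0.53 (SE 0.19, adjusted p 0.176 in limma). Lamp2, whose product is needed for autophagosomes to fuse with lysosomes, was 24.6, 36.1 and 34.4 TPM against 22.8, 24.3 and 11.4 TPM. The groups of Lamp2 did not overlap, the log2 fold change being 0.72 (SE 0.28), 0.40 without WT replicate 3 and 0.14 with the slow-fibre covariate. On protein-coding rows alone they did, homozygous replicate 1 of Lamp2 (22.6 TPM) lying below WT replicate 2 (22.8 TPM). Ctsl, a protease, was 50.6, 54.1 and 47.5 TPM against 48.6, 34.3 and 42.6 TPM, and WT replicate 1 lay inside the homozygous range (log2 fold change 0.29, or 0.15 without WT replicate 2).

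TFEB and TFE3 bind E-box sequences with the core CACGTG, so the 250 bases before each RefSeq gene start were searched for it (RefSeq promoters, GRCm38.p6), which was possible for 36 of the 43 genes. The RefSeq start lay within 100 bases of the GENCODE gene start for 26 of the 36 genes. For the other 10 it lay farther away, for Atg7 27999 bases inside the GENCODE gene. The core, which reads the same on both strands, was found in 6 of the 36 (Atg3, Atg5, Atg7, Bnip3, Lamp1 and Ctsl), against 6.86% of 27025 gene symbols with such a window. The windows of Lamp1 and Bnip3 are shown, as the 2 of the 6 with the largest log2 fold changes. They are written 5′ to 3′ on the strand of the gene with the core in capitals. Lamp1 lies at chr8:13158911-13159160, plus strand, and ends at the GENCODE start. Bnip3 lies at chr7:138909507-138909756, minus strand, and its last 13 bases are inside the GENCODE gene.
Lamp1: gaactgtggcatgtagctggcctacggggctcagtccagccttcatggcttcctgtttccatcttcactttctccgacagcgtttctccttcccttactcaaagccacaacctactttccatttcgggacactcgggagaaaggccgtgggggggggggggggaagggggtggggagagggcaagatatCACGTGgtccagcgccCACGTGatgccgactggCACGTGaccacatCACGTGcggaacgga
Bnip3: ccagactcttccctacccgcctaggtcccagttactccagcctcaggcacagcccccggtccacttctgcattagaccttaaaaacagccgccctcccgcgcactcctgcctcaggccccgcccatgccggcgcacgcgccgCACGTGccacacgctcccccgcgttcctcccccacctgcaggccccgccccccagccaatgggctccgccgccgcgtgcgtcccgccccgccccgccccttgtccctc

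The Lamp1 window held 4 copies of the core, the first bases lying 61, 45, 28 and 15 bases before the RefSeq start, a number reached by 5 of the 27025 gene symbols. The Bnip3 window held 1 copy, 108 bases before that start. The longer palindrome TCACGTGA, which contains the core, was found in 0.907% of gene symbols and in 1 of the 36 members (Atg3). The 6 genes with the core had log2 fold changes from 0.18 to 0.71 with a median of 0.33, against a median of 0.39 over all 43 genes. The glucocorticoid receptor palindrome (a consensus of paired half-sites) was found in 0 of the 36 windows, against 0.0111% of gene symbols, and the FoxO motif GTAAACA (either strand) also in 0, against 3.54%. These counts describe letters in a short window and carry no information on binding.

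The table gives values by transcript, and the 43 genes had 281 rows, of which 248 were above 0 in some library and 122 were tested. None of the 122 passed the threshold over 21165 isoforms tested (limma, smallest adjusted p 0.226), where 0.0425% of all isoforms did. At an unadjusted p under 0.05, 30 of the 122 were higher (24.6%, against 14.2% of all isoforms) and 1 was lower (0.82%, against 1.52%). Groups did not overlap for 45 rows with the homozygous libraries above (25.6% of all isoforms did so) and for 4 with them below (2.11% of all isoforms). The Atg2a rows ENSMUST00000202877.1 and ENSMUST00000201269.3, which repeat another row in every library, were among the 122. The latter was also among the 45, as was the row it repeats. The split of reads between rows of a gene is an estimate, and its settings were not stated in the labels.

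The 3 member isoforms with the smallest p-values belong to Rb1cc1, Becn1 and Pik3r4. A retained-intron row of Rb1cc1 (ENSMUST00000159656.1, 1599 nt) was 0.570, 0 and 0 TPM (homozygous) and 1.68, 5.597 and 4.22 TPM (WT). It was the 1 row lower at an unadjusted p under 0.05 (log2 fold change -1.96, adjusted p 0.226 in limma) and made up 1.75, 0 and 0% of the gene in the homozygous against 5.40, 16.2 and 18.9% in the WT libraries. A Becn1 row annotated as a target of nonsense-mediated decay (ENSMUST00000167818.7) was 8.49, 6.68 and 6.12 TPM against 3.27, 3.67 and 1.99 TPM (log2 fold change 1.04, adjusted p 0.252 in limma).

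The rows of Pik3r4 were divided differently in the groups, while its sum overlapped. Its sum was 4.74, 4.03 and 5.39 TPM (homozygous) and 4.03, 3.95 and 6.15 TPM (WT). The coding row ENSMUST00000065778.12 (4711 nt) was 2.01, 2.32 and 2.18 TPM (homozygous) and 0.376, 0.0848 and 0.952 TPM (WT), a log2 fold change of 1.15 (limma, adjusted p 0.252). That row was 42.5, 57.4 and 40.4% of the gene with the allele and 9.33, 2.15 and 15.5% without it, so the shares were far apart. A coding row of similar length (ENSMUST00000191268.6, 4756 nt) was 0.516, 0.0641 and 0.398 TPM (homozygous) and 1.18, 1.27 and 0 TPM (WT). It was higher in WT replicates 1 and 2, and the division of reads between these coding rows was not tested. The retained-intron row ENSMUST00000214254.1 of the same gene was 1.63, 1.13 and 2.30 TPM (homozygous) and 2.38, 2.42 and 4.52 TPM (WT), with the homozygous libraries below. All coding rows of Pik3r4 together were 53.3, 65.4 and 47.7% of the gene in the homozygous and 38.5, 34.2 and 23.2% in the WT libraries.

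A further pair of rows, in Bnip3 and Map1lc3b, was chosen after its values were seen. The short coding row of Bnip3 (ENSMUST00000130500.7, 719 nt) was 81.2, 64.5 and 70.2 TPM (homozygous) and 42.7, 9.42 and 5.36 TPM (WT). The long row (ENSMUST00000106112.1, 1756 nt) was 141, 221 and 213 TPM against 188, 166 and 94.6 TPM and overlapped, so the groups of Bnip3 were apart in the short row and not in the long one. The short row had a log2 fold change of 2.35 (limma, adjusted p 0.269), and it was the 1 member isoform to pass in any alternative, without WT replicate 1 (adjusted p 0.031). The Map1lc3b row ENSMUST00000181521.1 was 24.5, 45.2 and 47.4 TPM (homozygous) and 24.2, 8.95 and 0.147 TPM (WT), with homozygous replicate 1 and WT replicate 1 almost equal.

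**Figure D4:**
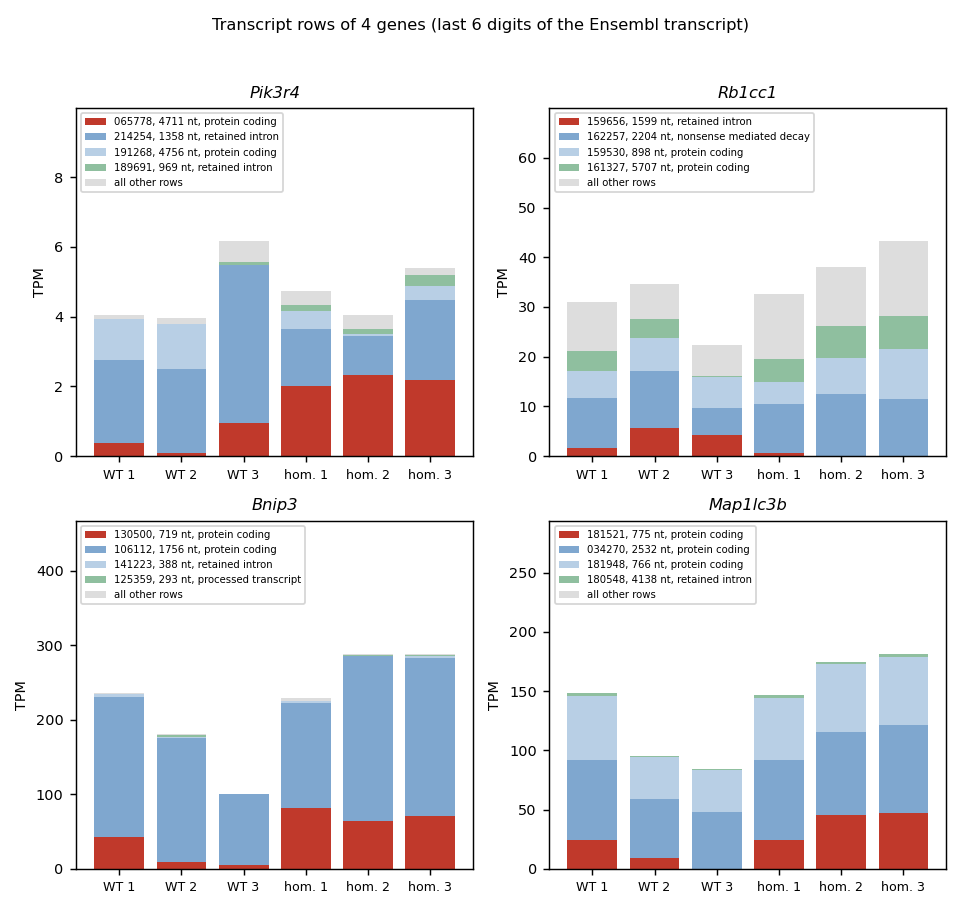
TPM of the transcript rows of Pik3r4, Rb1cc1, Bnip3 and Map1lc3b in each library, stacked to the gene sum, with length and GENCODE M21 class of the leading rows. Red is the row described in the text: about 2 TPM of Pik3r4 in each homozygous library against under 1 TPM in each WT library.

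Several members lay mostly on rows that GENCODE M21 does not class as coding. Of the 43 genes, 26 had at least 90% of their TPM on protein-coding rows and 9 had under 50%. In 8 of the 9 the rest lay on rows of other GENCODE classes. In Atg2a, 50% of the TPM lay on rows with no GENCODE M21 match, all 5 of them equal in every library to a matched row, so its summed level counts the same values again. Atg4d was the extreme, with 3.29, 3.16 and 2.87% on coding rows in the homozygous and 2.89, 3.67 and 3.11% in the WT libraries, the rest being mainly a pair of retained-intron rows. Becn1 had 10.9, 12.3 and 12.4% of its TPM on coding rows in the homozygous and 7.69, 5.14 and 7.82% in the WT libraries, so these groups did not overlap. Bnip3l had 19.5, 17.6 and 16.6% against 20.2, 18.9 and 21.7%, with most of its TPM on short processed transcripts. Summing coding rows only, a choice made after seeing the data, gave 0 of 43 genes past the threshold. Log2 fold changes then moved in both directions. Becn1 rose to 1.01 (limma, adjusted p 0.161), against 0.41 for its full sum, and Optn to 0.52, against 0.38. Of the Becn1 coding rows, a short one (684 nt) was 4.31, 4.92 and 4.16 TPM (homozygous) and 2.05, 0 and 2.21 TPM (WT). A long one (4365 nt) overlapped, at 1.21, 1.49 and 1.64 TPM against 1.43, 1.70 and 0.198 TPM. Nbr1 fell to 0.16 (limma, adjusted p 0.403), against 0.50, and Pik3c3 to 0.15, against 0.39. Atg4b fell to 0.37 (limma, adjusted p 0.394), against 0.43, and its groups then overlapped. The groups of Pik3c3, Uvrag, Wipi2, Atg16l1, Gabarapl2, Sqstm1 and Lamp2, apart in the full sums, also overlapped on coding rows. Those of Rb1cc1, Becn1 and Pik3r4 went the other way, overlapping in the full sums and not on coding rows. The coding share of Nbr1 was 45.5, 51.1 and 41.8% in the homozygous and 52.6, 53.4 and 70.3% in the WT libraries.

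Besides Atg101, 13 members fell outside the rule for naming genes (Pik3r4 and Ulk2 among them). All 13 had a positive log2 fold change, from 0.018 to 0.48, none with an adjusted p under 0.18 (limma), and 7 had groups that did not overlap. Their mean levels ran from 2.12 TPM (Atg4c) to 39.5 TPM (Atg4d). Of a second list of 54 symbols of the wider pathway, 51 were in the table and 49 were tested, of which 0 passed the threshold. At an unadjusted p under 0.05, 21 of the 49 were higher (42.9%, against 23.7% of all genes) and 0 were lower, and their median log2 fold change was 0.34. The cargo adaptor Tax1bp1, with the smallest p-value of that list, was 35.1, 37.0 and 40.6 TPM (homozygous) and 28.3, 28.2 and 21.1 TPM (WT). Park2 and Rab7 are named after their values were seen. Park2, the gene of parkin, which acts after PINK1, was 5.10, 8.96 and 8.34 TPM against 4.82, 3.36 and 3.65 TPM with no overlap (log2 fold change 0.75, adjusted p 0.168 in limma). Rab7, a GTPase of late endosomes and lysosomes, overlapped, at 140.5, 129 and 123 TPM against 120.5, 126 and 159 TPM.

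Library weights were the 1 choice that brought members past the threshold. With limma array weights, in which WT replicate 3 counted least (weight 0.199) and WT replicate 1 most (weight 2.5005), 5 of the 43 genes had an adjusted p under 0.05 (Ulk1, Ambra1, Atg4a, Nbr1 and Tfe3), all higher in the homozygous libraries, against 7.06% of all genes called as higher. Adjusted p was 0.0416 for Ulk1 and Tfe3, 0.0432 for Ambra1, 0.0447 for Atg4a and 0.0458 for Nbr1 in that limma fit. With array weights and quantile normalization together the number was 0.

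**Figure D5:**
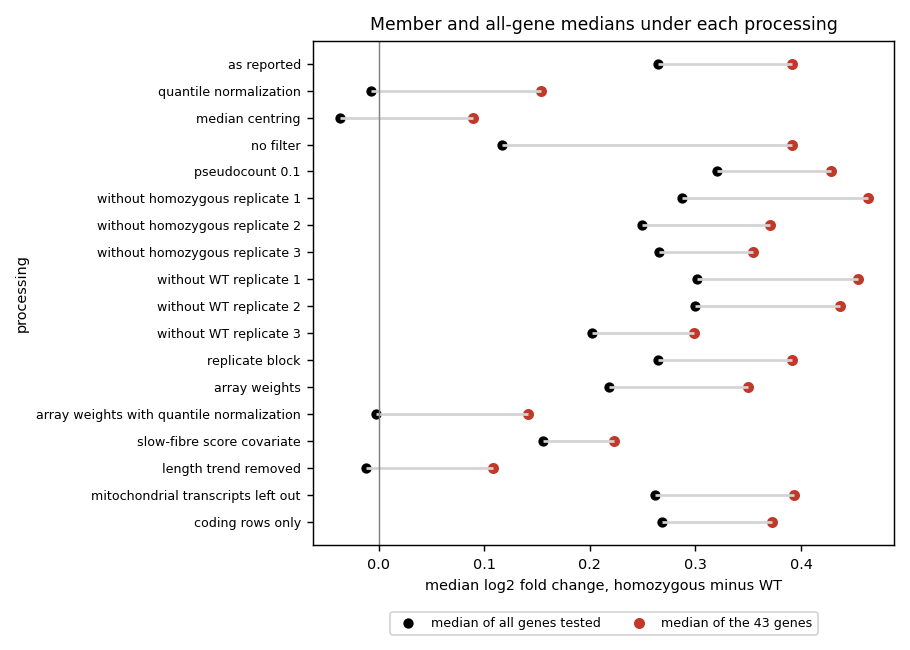
Median log2 fold change of the 43 genes (red) and of all genes tested (black) under each processing. The member median lies to the right of the all-gene median under every processing shown, by 0.067 (slow-fibre covariate) to 0.27 (no filter), while both medians move with the scaling.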

How the data were processed

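Quadriceps RNA was enriched for poly-A tails and sequenced as stranded libraries, per the labels' protocols. The authors deposited a table of TPM per Ensembl transcript, per the file headers, with 1 column per library, and each library sums to 1000000. The submitters' processing notes name FastQC, Trimmomatic, HISAT2 and kallisto and the build mm10; versions, roles, filters and the annotation release were not given in the sources used here. All 6 columns matched 1 library by name. TPM was summed per gene symbol and put on a log2(TPM + 1) scale. The test took the 11099 genes (and, for isoforms, 21165) that reached 1 TPM in 3 or more libraries, with limma 3.58.1 in R 4.3.3 (mean-variance trend, robust, genotype as the only term), two-sided, with Benjamini-Hochberg adjustment over all features and a threshold of 0.05. A fold change on this scale understates the change of low genes. The fit was tested on simulated data in which 200 of the 11099 genes were changed, with noise drawn separately for each gene. It called 0% of the changed genes at a log2 change of 0.5, 44% at 1 and 91% at 2. The log2 fold changes of the 43 members lay between -0.34 and 0.78, so a lack of calls at such sizes does not show a lack of change.

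Positions, lengths and transcript classes come from GENCODE M21 (GRCm38), matched for 103635 of 105129 rows. The slow-fibre score is the mean log2(TPM + 1) of 11 markers. Alternatives were quantile normalization, median centring, no filter, a pseudocount of 0.1, each library left out, a replicate block, array weights with and without quantile normalization, the slow-fibre covariate, a length trend removed (loess, span 0.5), mitochondrial transcripts left out and, added after seeing the data, coding rows only. Values by library are given for all ATG8, receptor, mitophagy, transcription factor and lysosome members, for Ulk1, Becn1, Atg5, Atg7 and Atg12, and in the remaining roles for the 2 members with the smallest p, and isoforms likewise for the 3 with the smallest p. Atg101 and Pik3r4, with the Bnip3 and Map1lc3b rows, were added after their values were seen. The members and lists were chosen with earlier results of these data known. Python 3.11.15, numpy 2.4.6, pandas 2.3.3 and matplotlib 3.10.9 were used.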

Additional observations from a re-analysis of the deposited data

How the results depend on the processing

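The number of member genes past the threshold was 0 and was 5 with array weights and 0 in the other 16 alternatives. Over all genes it was 0, against 810 with array weights, 2 with those and quantile normalization, and 0 to 2 on leaving out each library (2 without WT replicate 1, 1 without WT replicate 2). Wider pathway genes numbered 0, and 4 with array weights (Tax1bp1, Tex264, Vcp and Vps33a). Member isoforms numbered 0, with 0 to 1 on leaving out each library. The 24 members at an unadjusted p under 0.05 became 1 with quantile normalization, 1 with median centring, 4 with array weights and quantile normalization, 3 with the slow-fibre covariate, 3 with the length trend removed, 6 with mitochondrial transcripts left out, and 6 to 25 on leaving out each library. With the replicate number as a block, 15 members had an unadjusted p under 0.05, all higher, against 19.9% of all genes, and 0 passed. Deviations of same-numbered libraries correlated at -0.071, 0.061 and -0.013, which gives no sign of a pairing, and not every library correlated best with its own number.

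Of 30 named genes, 22 kept their direction under all 17 alternatives. Atg12 was -0.22 with quantile normalization, -0.23 with median centring, -0.11 (without WT replicate 3) to 0.22 (without WT replicate 2) on leaving out each library, -0.018 with array weights, -0.26 with array weights plus quantile normalization, -0.17 with the slow-fibre covariate and -0.30 with the length trend removed. Atg7 was -0.11 with quantile normalization, -0.13 with median centring, -0.010 with quantile normalization plus array weights, and -0.15 with the length trend removed. With median centring Ctsl was -0.016, Map1lc3a -0.029 and Sqstm1 -0.012. Atg9a was -0.0076 with the length trend removed, Fundc1 -0.14 with array weights and quantile normalization, and Atg101 0.20 with the slow-fibre covariate. The cause was not tested. The median of the members stayed above that of all genes by 0.067 to 0.27 over the 17 alternatives. The 0.27 came without a filter, where the all-gene median was 0.12 and the member median stayed at 0.39. The pooled SD between libraries of the member median minus the all-gene median was 0.174. Depth is unknown, and 3 libraries a group limit the precision.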
